A study of Mus musculus with 6 samples.

Results

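The Hox cluster genes were examined in MSC21, a population of mesenchymal stem cells from mouse bone marrow, and in Clone 4L.1.4, a tertiary clone grown from that population. Members were all rows of the array whose gene symbol was Hox, a cluster letter from a to d and a paralogue number. They were 39 genes, each with 1 row, of 35556 rows and 22300 named genes. The members were 11 in Hoxa on chromosome 6, 10 in Hoxb on chromosome 11, 9 in Hoxc on chromosome 15 and 9 in Hoxd on chromosome 2. There were 3 arrays a group, each from its own cell sample taken at confluence. The clone is a single clonal line, so the comparison sets 1 population against 1 line derived from it. No strain, age, genotype or treatment separating the groups was given in the labels, and both were bone marrow mesenchymal cells in the same kind of culture. The p-values below measure only the spread between these cultures. The question was how expression in the population compared with that in a clone derived from it.

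Hox genes encode homeodomain transcription factors. In each cluster the genes lie in order of paralogue number, and in the embryo the low-numbered genes are used towards the head and the high-numbered genes towards the tail and the ends of the limbs. Stromal cells and fibroblasts of the adult keep a Hox pattern typical of the place they came from, which is often called positional identity.

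All values are log2 expression levels normalised across arrays, and every difference is clone minus population on that scale. Array medians lay between 5.19 and 5.25 and lower quartiles between 4.54 and 4.58. A level near or below the lower quartile has no measured floor, so a change from such a level may be understated. Arrays of the same group correlated at 0.995 to 0.996 over all rows, and arrays of different groups at 0.975 to 0.979. Of the 13 mesenchymal stromal markers measured, 10 were above the array median on every array. Over all 13, 2 were higher and 8 lower in the clone, among them Lepr at -1.83, Thy1 at -1.82 and Pdgfra at 1.43. Thy1 and Nt5e were above the median on the 3 population arrays and on 0 clone arrays. None of the 10 blood markers measured was above the median on all arrays, but 1 was higher and 1 lower in the clone. Cd14, a monocyte marker, was above the median on the 3 population arrays and on 0 clone arrays (-0.60, adjusted p = 0.000891), and Kit, a progenitor and mast cell receptor, was higher by 0.31 (adjusted p = 0.0391). Ptprc, the pan-leukocyte marker, averaged 4.37 in the population and 4.39 in the clone. All 6 endothelial markers missed the test. The part of these marker shifts in the Hox results was not tested.

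Of the 39 Hox genes, 10 passed the test (limma, adjusted p under 0.05 over all rows), which is 25.6% beside 23.8% of all rows. That share was near the background and is not a result about the Hox genes as a list. The calls split evenly, with 5 genes higher in the clone (Hoxa3, Hoxa6, Hoxa9, Hoxc12 and Hoxc13) and 5 lower (Hoxc4, Hoxc5, Hoxc6, Hoxc9 and Hoxd8). Over all rows 12.8% were called higher and 10.9% lower. The median difference was 0.01 for the Hox genes and 0.00 for all rows. The 3 arrays of the clone and the 3 of the population did not overlap for 16 Hox genes, 8 in each direction, beside 37.2% of all rows. In these bulk samples, fewer cells using a gene and less RNA per cell cannot be told apart. Calls lay unevenly over the clusters: 6 of 9 in Hoxc, 3 of 11 in Hoxa, 1 of 9 in Hoxd and 0 of 10 in Hoxb. Levels were uneven too. The mean lay above every array median for 7 of 9 Hoxc and 10 of 11 Hoxa genes, but for no Hoxd or Hoxb gene. Of the 17 Hox genes above that level 8 were called, and of the 22 others 2 were called. Of all rows above the median level, 42.1% were called. In Hoxb, 2 genes had an unadjusted p under 0.05.

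**Figure D1:**
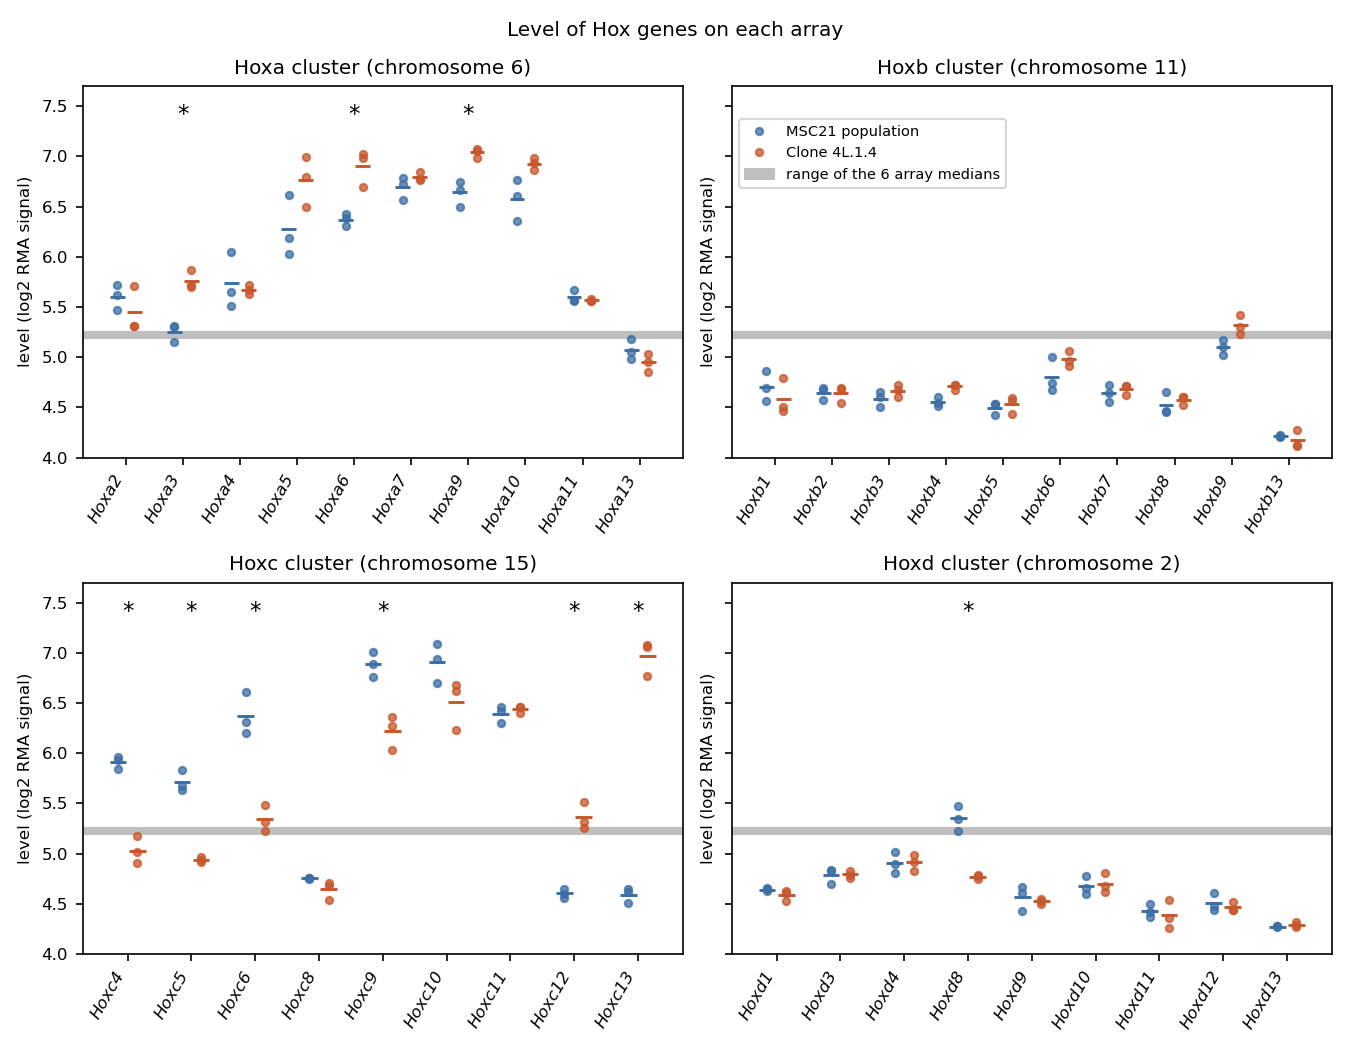
Log2 expression level of the Hox genes on each array, arranged by cluster and paralogue number, with population and clone arrays as separate points, short bars for group means, a grey band for the array medians and an asterisk for adjusted p under 0.05. Hoxc13 lay between 4.51 and 4.65 in the population and between 6.77 and 7.08 in the clone, while most Hoxb and Hoxd genes lay below the array medians in both groups.

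The Hoxc cluster held the largest differences in both directions among the Hox genes. Its last members, Hoxc12 and Hoxc13, were higher in the clone, and its first members, Hoxc4, Hoxc5 and Hoxc6, were lower together with Hoxc9. The genes between, Hoxc8, Hoxc10 and Hoxc11, did not pass.

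Hoxc13, which is required for hair and nail formation in the mouse, read 4.65, 4.62 and 4.51 in the population and 6.77, 7.08 and 7.06 in the clone. Every clone array was above every population array by a wide margin, and the gene went from below to above the median of its array. The difference was 2.38 (95% interval 2.15 to 2.60), or 5.2-fold, with an adjusted p of 1.25e-05 in limma. Among all rows its mean level stood at percentile 26.6 in the population and 71.6 in the clone. The authors' deposited table gave a fold of 5.2 for this gene as well, from the same arrays.

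Hoxc12, its neighbour in the cluster, read 4.60, 4.56 and 4.65 in the population and 5.26, 5.51 and 5.32 in the clone. The groups did not overlap, and the clone arrays lay just above their medians. The difference was 0.76 (95% interval 0.58 to 0.94; adjusted p = 0.000527 in limma). Both genes started from near the lower quartile of the population arrays, where levels carry no measured floor.

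Hoxc6, a gene of the thoracic region, read 6.31, 6.61 and 6.20 in the population and 5.32, 5.48 and 5.23 in the clone. All clone arrays lay below all population arrays. It fell by 1.03 (95% interval -1.32 to -0.74), or 2.04-fold, with an adjusted p of 0.00108. Hoxc4, which has a known role in B lymphocytes, read 5.93, 5.96 and 5.84 in the population and 4.91, 5.02 and 5.18 in the clone. Hoxc5 read 5.63, 5.83 and 5.67 against 4.97, 4.92 and 4.94. In both genes the clone arrays were low, under their array medians, and apart from the population arrays. Hoxc4 fell by 0.87 (adjusted p = 0.00039) and Hoxc5 by 0.77 (adjusted p = 0.00029).

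Hoxc9, which shapes thoracic motor neurons and vertebrae, read 6.76, 6.89 and 7.01 in the population and 6.27, 6.03 and 6.36 in the clone. The clone arrays were again the lower ones without overlap, although still above their medians. It fell by 0.67 (95% interval -0.91 to -0.42; adjusted p = 0.00395). Hoxc10, a gene of the lumbar region, read 6.70, 6.94 and 7.09 against 6.68, 6.62 and 6.23. Its groups were separate by a narrow gap, and its difference of -0.40 did not pass (adjusted p = 0.108). Hoxc11, used in the hindlimb, read 6.30, 6.42 and 6.46 in the population and 6.46, 6.40 and 6.46 in the clone. These groups overlapped, with a difference of 0.04 and an interval from -0.10 to 0.19. Hoxc8 lay between 4.54 and 4.76, below the median on every array, with a difference of -0.11 (adjusted p = 0.270).

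Many genes of chromosome 15, which carries Hoxc, were also lower in the clone. Outside the Hox genes, 326 of 769 named genes of the chromosome were lower (42.4%) and 24 were higher (3.12%), with a median difference of -0.50 over 435 genes above the median level. Among those 435 genes, 69.9% were lower and 5.06% higher. Hoxc had 4 of 9 lower and 2 of 9 higher, and the mean of 7 of its 9 genes lay above every array median. Over the 5 nearest measured named genes on each side of the cluster, a set chosen after values had been seen, 8 of 10 were lower and 0 were higher. Calcoco1, the neighbour on the Hoxc13 side, fell by 0.89 (adjusted p = 0.000118), while Hoxc13 beside it rose. On the Hoxc4 side Smug1, a DNA repair glycosylase, fell by 0.41, Cbx5, a heterochromatin protein, by 0.75 and Hnrnpa1 by 0.45. The Hnrnpa1 value is uncertain because this gene has near-identical copies.

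**Figure D2:**
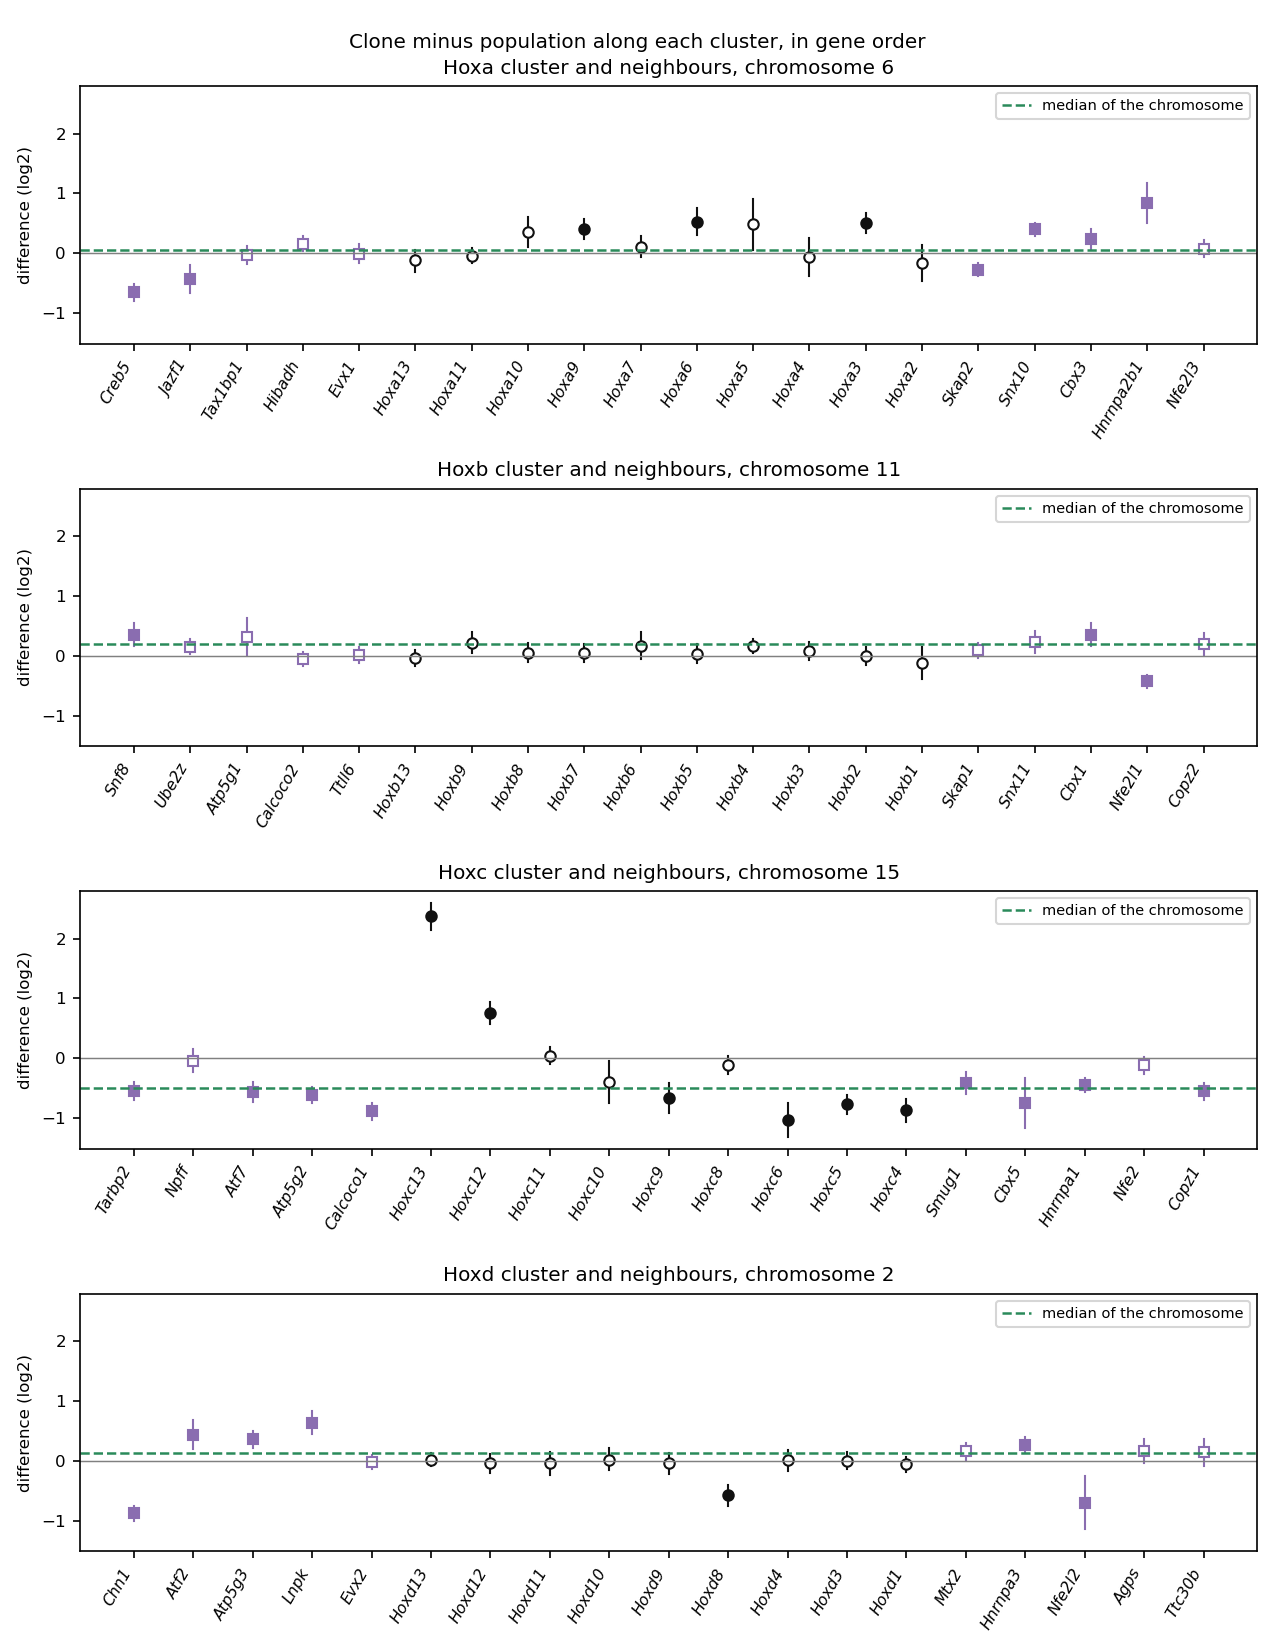
Clone minus population difference (log2) for the Hox genes and the 5 measured genes on each side of its cluster, in chromosome order, with circles for Hox genes, squares for neighbours, bars for 95% intervals, filled symbols for adjusted p under 0.05 and a dashed line at the chromosome median. Hoxc13 and Hoxc12 stand above zero at 2.38 and 0.76 between flanking genes that range from -0.89 to -0.04.

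When each difference was taken relative to the median of its own chromosome and refitted over all rows, Hoxc13 stood at 2.88 and Hoxc12 at 1.26. Hoxc4, Hoxc5 and Hoxc6 remained lower, at -0.37 (adjusted p = 0.0164), -0.26 (adjusted p = 0.0292) and -0.53 (adjusted p = 0.0171). Hoxc9 did not pass on that scale (-0.16, adjusted p = 0.296). Hoxc11 was called higher at 0.55 (adjusted p = 0.000994) and Hoxc8 at 0.39 (adjusted p = 0.00501), and Hoxc10 changed sign to 0.11 (adjusted p = 0.625). On this scale Hoxc had 4 genes called higher and 3 lower. The subtracted median came from genes above the median level. Hoxc8, below the array median on every array, stood at -0.11 (adjusted p = 0.27) before centring. Its call as higher came from the subtraction and is not read as a rise. The subtraction also enlarged the rises of Hoxc12 and Hoxc13, which were near the lower quartile in the population.

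In Hoxa the clone had 3 of 11 genes higher (27.3%) and 0 lower, beside 12.8% higher and 9.81% lower among the other named genes of chromosome 6. The mean of 10 of the 11 Hoxa genes lay above every array median. Among the other chromosome 6 genes above the median level, 25.2% were higher and 18.8% lower. The share higher in Hoxa was near that background. The differences of the 3 higher Hoxa genes were between 0.40 and 0.52. The median over the cluster was 0.13, and that of the chromosome was 0.05.

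Hoxa3, which is needed for the thymus and parathyroid, read 5.31, 5.15 and 5.30 in the population and 5.87, 5.72 and 5.70 in the clone. Hoxa6 read 6.39, 6.31 and 6.43 against 7.02, 6.69 and 6.98. Hoxa9, a regulator of blood stem cells that is often active in human leukaemia, read 6.50, 6.74 and 6.66 against 7.05, 6.98 and 7.07. For each of these genes the clone arrays were the higher ones and the groups did not overlap. The rises were 0.51 for Hoxa3 (adjusted p = 0.00257), 0.52 for Hoxa6 (adjusted p = 0.00763) and 0.40 for Hoxa9 (adjusted p = 0.00753).

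Hoxa5 and Hoxa10 did not pass, but were called under some alternatives, 2 of 16 for Hoxa5 and 3 of 16 for Hoxa10. Hoxa5, which patterns the lung and the neck-to-thorax transition, read 6.19, 6.61 and 6.03 in the population and 6.79, 6.50 and 6.99 in the clone, so the groups overlapped. Its difference was 0.48 (adjusted p = 0.107). Hoxa10, needed in the uterus and lumbar spine, read 6.60, 6.76 and 6.36 against 6.98, 6.86 and 6.93, with all clone arrays higher. Its difference was 0.35 (adjusted p = 0.0539). Both genes passed without the second population sample, where Hoxa5 stood at 0.65 (adjusted p = 0.0329) and Hoxa10 at 0.44 (adjusted p = 0.0207). With all samples kept, both also passed when only rows with a symbol were fitted (adjusted p = 0.0483 for Hoxa5 and 0.0212 for Hoxa10), and Hoxa10 passed among rows above the median level (adjusted p = 0.0368).

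The other Hoxa genes did not pass. Hoxa7 was above the median on all arrays, at 6.78, 6.56 and 6.72 in the population and 6.77, 6.84 and 6.76 in the clone. Hoxa2, a gene of the branchial arches, read 5.72, 5.62 and 5.47 against 5.31, 5.71 and 5.31. In both the groups overlapped. Hoxa4 read 6.05, 5.65 and 5.51 against 5.72, 5.67 and 5.63, and its difference of -0.06 became 0.09 without the first population sample. Hoxa11, which shapes the middle limb segment with its paralogues, read 5.56, 5.57 and 5.67 against 5.56, 5.58 and 5.56, a difference of -0.04. Hoxa13, a gene of the hand, foot and genital tract, lay below the array median throughout, from 4.85 to 5.18.

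In Hoxd, Hoxd8 was the only gene that passed, beside 7.19% lower and 17.9% higher among the named genes of chromosome 2. It read 5.47, 5.34 and 5.23 in the population and 4.75, 4.79 and 4.78 in the clone. The population arrays were all above their medians and the clone arrays all below. Hoxd8 fell by 0.57 (95% interval -0.75 to -0.40; adjusted p = 0.00147). The other 8 Hoxd genes, which include the digit gene Hoxd13 and the forelimb gene Hoxd9, lay below the median on every array, between 4.26 and 5.02. Their differences ran from -0.05 to 0.02, with intervals within -0.24 to 0.21. Relative to its chromosome, Hoxd1 was also called lower (-0.19, adjusted p = 0.0339), against -0.05 before centring. The subtracted chromosome median of 0.13 came from genes above the median level, so this call is not read as a change in Hoxd1. Of the 10 measured genes flanking Hoxd, 4 were higher and 2 lower. Among the other named chromosome 2 genes above the median level, 34.3% were higher and 12% lower. No Hoxd gene had a mean above every array median. On the Hoxd13 side Lnpk rose by 0.64 and Chn1 fell by 0.88, the largest flanking differences in each direction. Evx2, directly beside Hoxd13, stood at -0.02 and did not pass.

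The Hoxb genes were low in both groups, between 4.12 and 5.42. None of the 10 passed, and their differences ran from -0.12 to 0.22 with intervals within -0.39 to 0.40. On chromosome 11, 25.3% of the other named genes were called higher and 7.25% lower. Most of these calls were in genes above the median level, 368 of 388 higher and 82 of 111 lower. No Hoxb gene had a mean above every array median, so these shares are not matched to Hoxb for level. Hoxb9 read 5.17, 5.02 and 5.10 in the population and 5.23, 5.42 and 5.30 in the clone, with the clone arrays higher and 2 of them above their median. Its difference was 0.22 (adjusted p = 0.0668). Hoxb4, known for expanding blood stem cells, lay apart in the same direction at 0.16 (adjusted p = 0.0684), with every array below its median. Hoxb13, a prostate gene in the mouse, lay between 4.12 and 4.27 and stood at -0.04. It was called lower relative to its chromosome (-0.24, adjusted p = 0.0184), after subtraction of a chromosome median of 0.20. That median came from genes above the median level, so the call is not read as a change in Hoxb13.

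Read by paralogue number, the calls of the lowest group, 1 to 3, were 1 higher and 0 lower of 8 genes. Paralogues 4 to 8 had 1 higher and 4 lower of 15, and paralogues 9 to 13 had 3 higher and 1 lower of 16. Over all rows 12.8% were called higher and 10.9% lower. Of the lower calls, Hoxc4, Hoxc5, Hoxc6 and Hoxc9 lie on chromosome 15, where 42.4% of the other named genes were lower. Hoxc12 and Hoxc13, among the higher calls, lie there too. The difference between these groups was not tested, and cluster and paralogue number were not separated. In 2 paralogue groups, called members went in opposite directions. In group 6, Hoxa6 rose by 0.52 and Hoxc6 fell by 1.03, with Hoxb6 at 0.17 and not passing. In group 9, Hoxa9 rose by 0.40 and Hoxc9 fell by 0.67, although the latter was not called relative to its chromosome. In group 13, Hoxc13 rose by 2.38, while Hoxa13, Hoxb13 and Hoxd13 did not pass and lay below the median on every array. In group 8, Hoxd8 fell, and Hoxb8 and Hoxc8 did not pass. The differences between members of groups 8 and 13 were not tested.

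**Figure D3:**
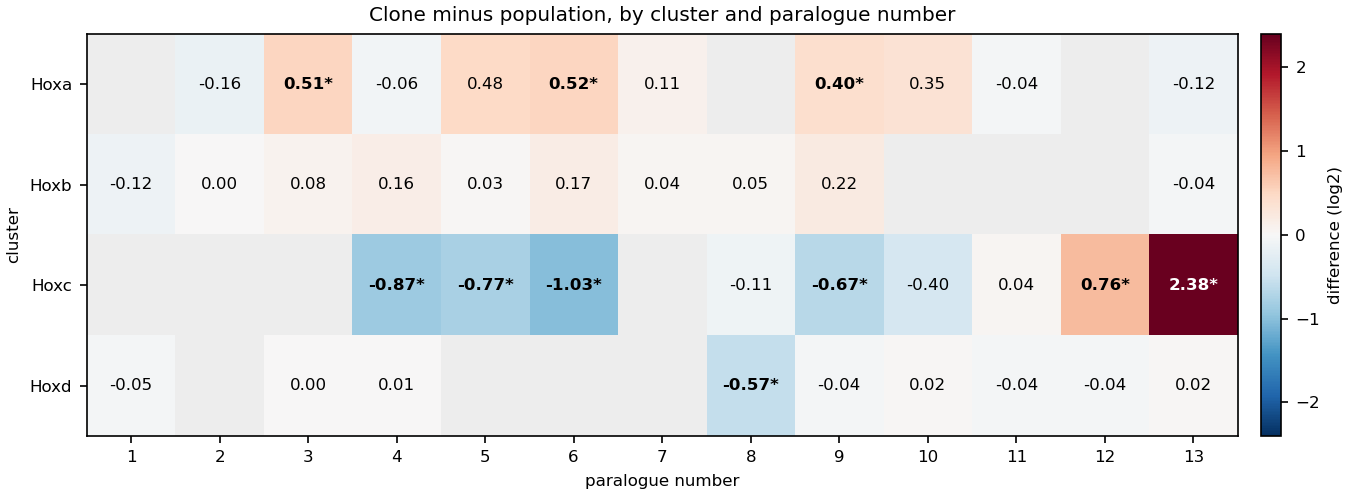
Clone minus population difference (log2, colour scale) for the Hox genes, with clusters as rows, paralogue numbers as columns, an asterisk for adjusted p under 0.05 and empty squares where no value is shown. The Hoxc row runs from falls at paralogues 4 to 6 to rises at 12 and 13, and the Hoxb row holds no asterisk.

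RefSeq promoters (GRCm38.p6, the 250 bases before the gene's start) were at hand for 22 of the 39 Hox genes, 5 of them among the 10 called. They are shown because these genes moved, and so that rising and falling genes can be set side by side. All read 5′ to 3′ on the gene's strand, and capitals mark a match to one of 5 motifs searched on both strands. These were TATAAA (the TATA box), the CCAAT box, TGATNNAT (bound by Pbx and Hox proteins), TTTATG (bound by caudal factors) and AGGTCA (a half-site of retinoic acid and other nuclear receptors). Matches in the sequences printed did not overlap. The first 3 genes rose in the clone and lie on the minus strand, at chr6:52213068-52213317 for Hoxa3, chr6:52208673-52208922 for Hoxa6 and chr6:52227371-52227620 for Hoxa9. The other 2 fell and lie on the plus strand, at chr15:103034145-103034394 for Hoxc4 and chr2:74704365-74704614 for Hoxd8. The Hoxa3 window precedes a RefSeq start that lies between the windows of Hoxa6 and Hoxa7, out of the order of paralogue numbers. Whether these cells used that start of Hoxa3 was not tested.
Hoxa3: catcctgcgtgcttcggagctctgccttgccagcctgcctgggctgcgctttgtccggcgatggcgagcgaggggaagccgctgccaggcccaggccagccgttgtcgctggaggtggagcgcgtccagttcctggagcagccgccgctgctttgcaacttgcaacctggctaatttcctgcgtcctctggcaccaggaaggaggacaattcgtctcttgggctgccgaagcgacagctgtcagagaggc
Hoxa6: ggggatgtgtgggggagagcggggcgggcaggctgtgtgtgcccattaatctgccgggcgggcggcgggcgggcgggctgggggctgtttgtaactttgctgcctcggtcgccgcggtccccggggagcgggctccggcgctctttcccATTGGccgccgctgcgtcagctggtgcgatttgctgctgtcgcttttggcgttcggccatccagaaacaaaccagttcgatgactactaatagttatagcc
Hoxa9: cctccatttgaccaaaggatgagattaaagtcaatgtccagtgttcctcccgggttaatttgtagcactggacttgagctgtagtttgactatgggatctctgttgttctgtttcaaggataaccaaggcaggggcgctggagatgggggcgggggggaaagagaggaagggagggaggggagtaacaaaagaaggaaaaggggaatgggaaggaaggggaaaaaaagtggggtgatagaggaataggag
Hoxc4: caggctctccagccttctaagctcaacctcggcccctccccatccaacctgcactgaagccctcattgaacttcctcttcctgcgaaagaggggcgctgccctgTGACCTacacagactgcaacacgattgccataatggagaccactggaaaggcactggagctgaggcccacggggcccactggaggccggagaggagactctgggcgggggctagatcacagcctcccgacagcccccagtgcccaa
Hoxd8: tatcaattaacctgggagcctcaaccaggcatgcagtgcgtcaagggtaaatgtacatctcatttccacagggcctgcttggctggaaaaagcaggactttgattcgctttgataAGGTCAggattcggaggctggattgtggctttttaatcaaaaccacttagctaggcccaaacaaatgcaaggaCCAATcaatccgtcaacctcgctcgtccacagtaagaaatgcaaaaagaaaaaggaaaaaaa

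Hoxc4 and Hoxd8 each held AGGTCA, in Hoxc4 as its reverse complement. Hoxd8 and Hoxa6 held CCAAT, in Hoxa6 on the other strand. Hoxa3 and Hoxa9 held none of the motifs in this window. Of all 32851 promoters of the same length, 14% held AGGTCA, 33.8% CCAAT, 12.4% TATAAA, 10.8% TTTATG and 7.68% TGATNNAT. Among the 24 Hox promoters these motifs occurred in 6, 14, 4, 5 and 4. The promoter windows also differed in CG dinucleotides, with 24 in Hoxa6, 18 in Hoxa3, 8 in Hoxc4, 6 in Hoxd8 and 3 in Hoxa9. The median was 12.5 over the Hox promoters and 6 over all promoters. These matches describe the sequence and were not tested against the expression differences.

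Other genes of the Hox system were read from lists of known cofactors, regulators and regional genes. Among the 11 TALE homeodomain cofactors, which bind DNA together with Hox proteins, 6 were higher and 1 lower in the clone, with a median of 0.28. Pknox2 rose by 1.01, Pbx2 by 0.68, Pbx3 by 0.50 and Meis2 by 0.41, and Pknox1 fell by 0.31. Meis1 stood at 0.28 and did not pass. Among all rows above the median level 42.1% were called, and 10 of these 11 cofactors lay above every array's median on average. So did all 11 Trithorax and 17 Polycomb genes below, but only 2 of 8 caudal and axial genes and 4 of 15 head and anterior genes. The Hox genes above that level had 8 of 17 called.

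Of 17 Polycomb and related repressors, which keep Hox genes silent, 7 were higher and 2 lower, with a median of 0.18. That is 52.9% called, beside 42.1% of rows above the median level, and the list was not tested as a set. The Polycomb repressive complex genes Rnf2 and Bmi1 rose by 0.82 and 0.77, Suz12 rose by 0.31 and Ezh2 by 0.23, and Cbx7, on chromosome 15, fell by 0.24. The higher genes Suz12, Pcgf2, Cbx2 and Cbx8 lie on chromosome 11, where 42.9% of the other named genes above the median level were higher. Relative to that chromosome's median they stood at 0.11, 0.13, 0.02 and 0.07. Rnf2, Bmi1 and Ezh2, on other chromosomes, stood at 0.72, 0.64 and 0.18 relative to theirs. Of 11 Trithorax and MLL complex genes, which keep Hox genes active, 4 were higher and 2 lower, with a median of -0.10. That is 54.5% called. Kmt2b rose by 0.57 and Wdr5 by 0.42, Ash1l fell by 0.31, and Kmt2a, the best known Hox activator of the group, stood at -0.01.

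Retinoic acid, a signal that switches on Hox genes in the embryo, had 10 of 16 listed genes called, 4 higher and 6 lower, with a median of 0.01. That is 62.5%, beside 23.8% of all rows and 42.1% of rows above the median level. The mean of 11 of the 16 lay above every array median, and the list was not tested as a set. The binding protein Crabp2 fell by 1.89, the synthesising enzyme Aldh1a2 by 1.87, and the receptors Rarb and Rarg by 1.29 and 1.00. Rarg lies on chromosome 15. In the other direction, the enzyme Aldh1a1 rose by 1.10 and Crabp1 by 0.67. Of 8 caudal factors and axial signals 1 was called: Gdf11, a trunk-to-tail signal, rose by 0.73.

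Some regional genes outside the clusters also differed. Of 20 limb and regional homeobox and T-box genes 6 were higher and 5 lower, with a median of 0.07. That is 55% called, beside 23.8% of all rows and 42.1% of rows above the median level. The mean of 12 of the 20 lay above every array median, and the list was not tested as a set. Lhx9 rose by 1.94 and Tbx18 by 1.87, while Msx2 fell by 0.67 and Pitx1, a hindlimb gene, by 0.50. The hindlimb and forelimb T-box genes Tbx4 and Tbx5 stood at -0.02 and -0.07 and did not pass. Of 15 head and anterior patterning genes, 6 were higher and 0 lower, with a median of 0.09. That is 40% called, beside 23.8% of all rows and 42.1% of rows above the median level. The mean of 4 of the 15 lay above every array median, and the list was not tested as a set. Dlx5, a homeobox gene of jaw and bone formation, rose by 2.35, Dlx6 beside it by 0.96, Dlx1 by 0.69 and Dlx2 by 0.62. Dlx1 and Pax3, the latter higher by 0.20, lay below the array median on every array. They averaged 4.44 and 4.32 in the population, where levels carry no measured floor.

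**Figure D4:**
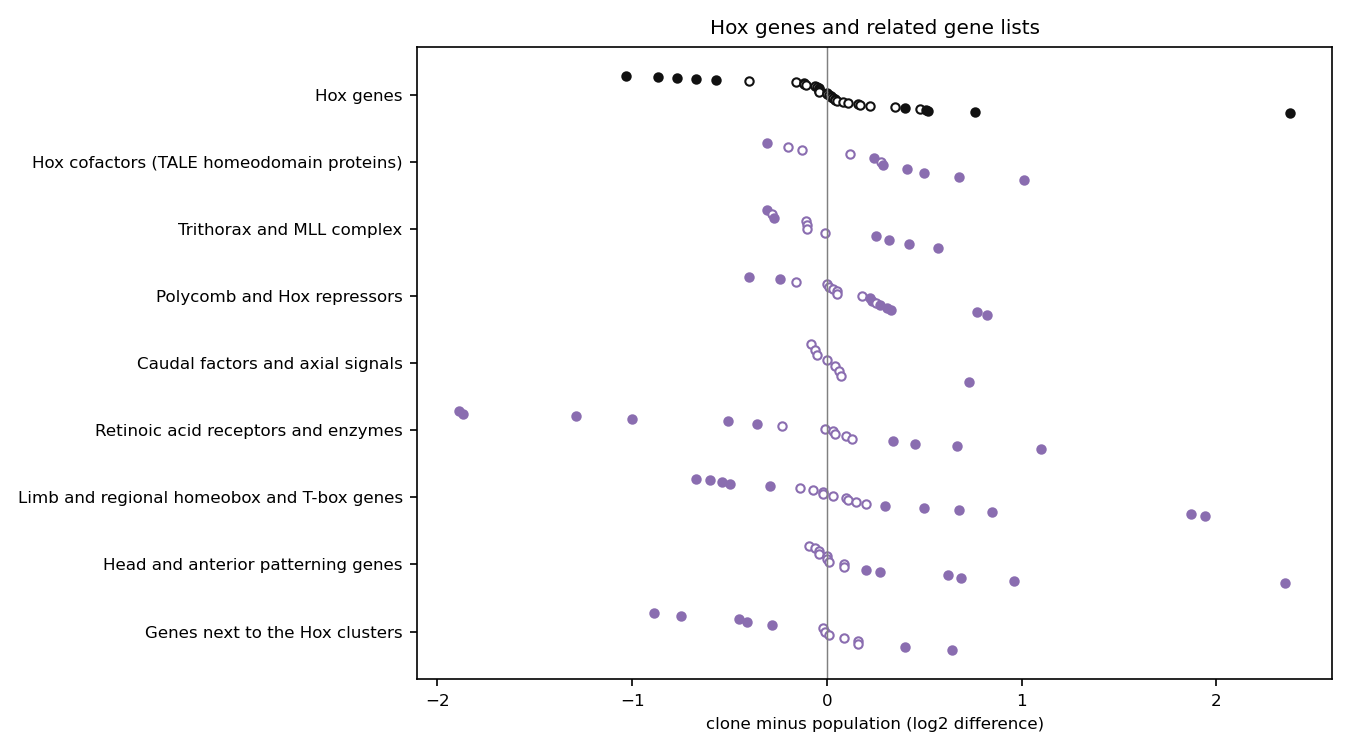
Clone minus population difference (log2) of the Hox genes (black) and of each member of the related lists (purple), 1 point per gene spread vertically for legibility, filled where adjusted p was under 0.05. Retinoic acid genes spread from -1.89 to 1.10, and the called head and anterior genes all lie above zero, up to Dlx5 at 2.35.

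The 13 listed genes beside the Hox clusters had 2 higher and 5 lower, with 4 of the 5 lower genes on chromosome 15. That is 53.8% called, beside 23.8% of all rows and 42.1% of rows above the median level. The mean of 8 of the 13 lay above every array median. None of the 10 listed RNAs without protein that the clusters are known to make had a named row here. A further 4 such RNAs found by position (Hoxaas2, 5730596B20Rik, Hoxd3os1 and Haglr), chosen after values had been seen, stood between -0.09 and 0.02 and did not pass.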

How the data were processed

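Biotin-labelled cRNA from 6 cultures was put on Affymetrix arrays (type not given in the sources used here), per the labels. Per the submitters' processing notes, which name RMA and Partek, the authors made the deposited log2 values. RMA sets each value relative to the rest of its array and compresses the changes of dim genes. The authors' deposited table gives, per the file headers, gene symbols, an unadjusted p-value and a signed linear fold (clone over population, a score that is negative where the clone is lower) per row, used here for symbols and as an alternative. The log2 of that fold matched the differences of the deposited group means within 7.81e-05 over all rows. A further 6 columns of per-array values matched no label and were not used.

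Groups came from the labels. All 35556 rows were fitted with limma 3.58.1 in R 4.3.3 (lmFit and eBayes), with Benjamini-Hochberg adjustment over all rows and a threshold of 0.05, so every adjusted p is limma's. The fit was tested on simulated data. The number of arrays limits the precision. A gene with several rows was represented by its highest-mean row. Symbols were updated, and chromosomes and gene order taken, through RefSeq GRCm38.p6. Chromosome centring subtracted from each array its median deviation over a chromosome's genes above the median level; rows with no chromosome stayed as they were.

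Members and lists were chosen with earlier results of these data known. Array values were given for each Hox gene that passed or whose mean lay above every array median, except 1 member that is not reported here and not drawn. Members of the other lists were named where they passed, with a few that did not pass chosen after their values were seen. Alternatives were renormalization, array and chromosome centring, row filters, a stricter threshold, the authors' p-values, a replicate block and leaving out each sample.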

Additional observations from a re-analysis of the deposited data

How the results depend on the processing

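Of the 10 called Hox genes, 9 stayed called under each alternative that tested them. The exception was Hoxc9 under chromosome centring (-0.16). Hoxc12 and Hoxd8 were not tested when only rows above the median level were used. That filter left 1 Hoxc gene higher and a Hox median of 0.04, and added Hoxa10 (4 Hoxa genes higher). Centring each chromosome gave 13 Hox calls, 4 Hoxc genes higher and a Hox median of -0.12, turned Hoxc10 to 0.11, and called Hoxb13 and Hoxd1 lower. The subtracted medians came from genes above the median level. Hoxc8, Hoxb13 and Hoxd1 lay below the array median on every array, so their calls are not read as changes. With symbol-bearing rows only, 9 Hox genes and 5 Hoxa genes were higher, the additions being Hoxa5, Hoxa10, Hoxb4 and Hoxb9, and the cause was not tested. The authors' p-values, adjusted, added Hoxb4 alone (11 calls). Centring arrays gave a Hox median of -0.03. The chromosome 15 median was -0.54 under array centring and under repeated quantile normalization. A threshold of 0.01 left 23 genes of the related lists higher, against 36.

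Leaving out each sample gave 10 to 12 Hox calls, 3 to 5 Hoxa genes higher, a Hox median of 0.00 to 0.03 and a chromosome 15 median of -0.51 to -0.49. Hoxb6 was called without the first population sample (0.27, adjusted p = 0.045). Hoxa4 ranged from -0.18 to 0.09 and Hoxc11 from 0.00 to 0.08. Same-numbered samples did not deviate together (r from -0.184 to -0.0353). These are deviations from means of only 3 arrays, so they cannot settle whether the numbers pair samples. With a replicate block, 10 Hox genes were called, 5 in each direction. Levels near the lower quartile, as in most Hoxb and Hoxd genes, limit what could be detected there.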
